A study of Mus musculus with 4 samples.

Results

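TBX5 binding on mouse chromosome 16 was examined in forelimb buds at embryonic day 10.5, and its peaks were set against the starts of the chromosome's genes. The members are every peak of the deposited list that lies on chromosome 16, 424 of 11224 peaks. The study immunoprecipitated chromatin with a polyclonal TBX5 antibody in 2 libraries and sequenced 2 libraries of input chromatin, which received no antibody. Both groups came from forelimbs of wild type embryos of the outbred ICR stock, with no treatment, and whether each library pooled several embryos is not given in the sources used here. The list holds 1 row per peak for both ChIP libraries together, so no value below has a replicate spread, read depth is unknown, and peaks are not replicates of the experiment. Intervals on shares of peaks are 95% Wilson intervals that cover counting error only and treat peaks as independent.

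TBX5 is a T-box transcription factor that marks the forelimb field and is needed for the forelimb bud to form. T-box proteins recognise DNA through a short element whose most cited form reads AGGTGTGA. Transcription factors of this kind may bind at promoters, the sequence around a transcription start, or at enhancers, which can lie far from the gene they serve and inside other genes. The distance of a summit (the base of highest signal in a peak) to the nearest start separates those places without saying which gene is served.

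Each peak carries a signal value, the strength given by the authors' peak caller, and a score. The score is a scaled form of the irreproducible discovery rate (IDR), where 830 stands for an IDR of 0.01, and 1000 is its ceiling and marks the peaks that recurred best. On chromosome 16 the median signal was 27.9 (range 5.40 to 237.4). A score of 1000 was given to 200 of 424 peaks (47.2%), against 45.4% of the whole list. An IDR of 0.01 or below was reached by 269 of 424 (63.4%), against 59.99% of the whole list. By median signal the chromosome stood at rank 5 of 20.

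The promoters whose peaks were strongest among those at gene starts are shown first, because the results turn on where such peaks lie and how strong they are. Each line gives the 250 bases before a RefSeq start on GRCm38.p6, 5′ to 3′ along the gene. Capitals mark the T-box core GGTGTG or its reverse complement CACACC. The stretches are chr16:63864176-63864425 on the minus strand, chr16:56029718-56029967 (minus), chr16:44394549-44394798 (plus), chr16:44173147-44173396 (plus) and chr16:16560220-16560469 (minus).
Epha3: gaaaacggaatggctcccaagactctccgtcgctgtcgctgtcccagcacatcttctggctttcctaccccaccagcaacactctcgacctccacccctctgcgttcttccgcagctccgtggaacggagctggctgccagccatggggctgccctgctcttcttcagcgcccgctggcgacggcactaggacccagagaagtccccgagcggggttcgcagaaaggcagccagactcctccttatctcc
Pcnp: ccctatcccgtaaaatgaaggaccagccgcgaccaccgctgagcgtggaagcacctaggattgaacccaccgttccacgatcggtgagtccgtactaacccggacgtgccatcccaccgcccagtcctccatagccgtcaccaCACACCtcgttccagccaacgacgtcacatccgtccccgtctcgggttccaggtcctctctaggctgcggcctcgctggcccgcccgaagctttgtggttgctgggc
Cfap44: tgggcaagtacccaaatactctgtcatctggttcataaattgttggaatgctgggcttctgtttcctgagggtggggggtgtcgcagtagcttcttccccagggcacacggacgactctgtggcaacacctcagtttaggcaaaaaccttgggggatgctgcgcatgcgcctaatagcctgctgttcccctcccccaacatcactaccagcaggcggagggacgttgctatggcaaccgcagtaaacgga
Usf3: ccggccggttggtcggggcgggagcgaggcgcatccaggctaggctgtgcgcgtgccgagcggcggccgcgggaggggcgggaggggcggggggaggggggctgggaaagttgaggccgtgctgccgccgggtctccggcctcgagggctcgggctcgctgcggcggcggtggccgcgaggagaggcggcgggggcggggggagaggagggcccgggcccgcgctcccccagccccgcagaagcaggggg
Fgd4: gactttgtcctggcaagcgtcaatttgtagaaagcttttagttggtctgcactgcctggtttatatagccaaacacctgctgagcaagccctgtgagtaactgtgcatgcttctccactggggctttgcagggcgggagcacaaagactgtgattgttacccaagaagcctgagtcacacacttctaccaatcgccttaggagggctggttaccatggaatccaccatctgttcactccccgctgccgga
Of these 5 promoters, that of Pcnp alone held the core, beginning 107 bases before the start. The summit fell within the printed bases only at Pcnp, 213 bp before the start. It lay 118 bp after the start at Cfap44, 831 bp after it at Epha3, 279 bp before it at Fgd4 and 809 bp before it at Usf3. Distances of summits to starts, here and below, take the deposited positions as those of GRCm38. An offset of similar size in the deposited positions would change them, and with them the side of the start.

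Whether positions of the list can be compared with GRCm38 gene starts was checked first. The labels name mm10, the GRCm38 assembly, but over the whole list 72 summits, spread over 5 chromosomes, had positions higher than any coding gene has there in that assembly. None of these was on chromosome 16. Starts were taken from a RefSeq table of promoters that holds 568 of the 679 protein-coding genes of chromosome 16, some with several starts. In windows of 5 Mb, pairs of 1 summit and 1 start at most 1 kb apart were counted at the deposited positions and at 1000 other positions, made by moving all summits by up to 1000 kb either way in steps of 2 kb. A summit near several starts, of 1 gene or of neighbours, gave several pairs. A window was taken to match where it had at least 2 pairs and exceeded 99% of the other shifts. That was met from 10 to 15 Mb (3 pairs, mean of the other shifts 0.181), from 15 to 20 Mb (4 pairs, mean 0.419), from 20 to 25 Mb (4 pairs, mean 0.224) and from 80 to 85 Mb (3 pairs, mean 0.015). By this rule the stretch used for all gene comparisons ran to 85 Mb and held 348 peaks. The last of these windows rests on a single peak, whose summit lay near 2 starts of Atp5j and 1 of Gabpa. With each summit counted once, an alternative added after the data were seen, the windows that met the criterion were reduced to that from 15 to 20 Mb (3 summits, mean of the other shifts 0.351), so by single windows the match is shown to 20 Mb only.

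Over the stretch to 85 Mb there were 24 pairs, from 17 summits, at the deposited positions, against 3.78 ± 2.26 (mean ± SD over the 1000 other shifts) and 14 at the highest of them. The end of the stretch was set by these same pairs, so part of this excess comes from that choice. The whole chromosome, where no end was chosen, gave 28 pairs against 5.40 ± 2.72, with 16 at the highest of the other shifts. With each summit counted once, the 17 of the stretch stood against 3.41 ± 1.92, with 11 at the highest of the other shifts. The first 25 Mb gave 12 pairs against a mean of 1.15, and no other shift reached 12. Between 25 and 80 Mb, where no window met the criterion alone, 9 pairs stood against a mean of 2.62, and 10 of 1000 other shifts gave 9 or more. Counted once, these were 8 summits against a mean of 2.40, with 10 other shifts at or above, so the match is less certain there. A finer scan with pairs within 300 bp and steps of 100 bp had its maximum of 18 pairs at the deposited positions, and moving all summits by 500 bp lowered it to 6 or 5. Past 85 Mb the 76 summits gave 4 pairs against a mean of 1.62, and 101 other shifts gave as many. All of these 4 pairs had the summit at the higher position, by 252 and 482 bp at Usp16, 392 bp at Rcan1 and 947 bp at Krtap14. Of the 17 summits near starts before 85 Mb, 12 also lay at the higher position and 5 at the lower, with a median of 106 bp. In the fine scan past 85 Mb the highest count, 3, was found with summits moved back by 200 to 500 bp, against 1 at the deposited positions. No gene was assigned to a peak there.

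**Figure D1:**
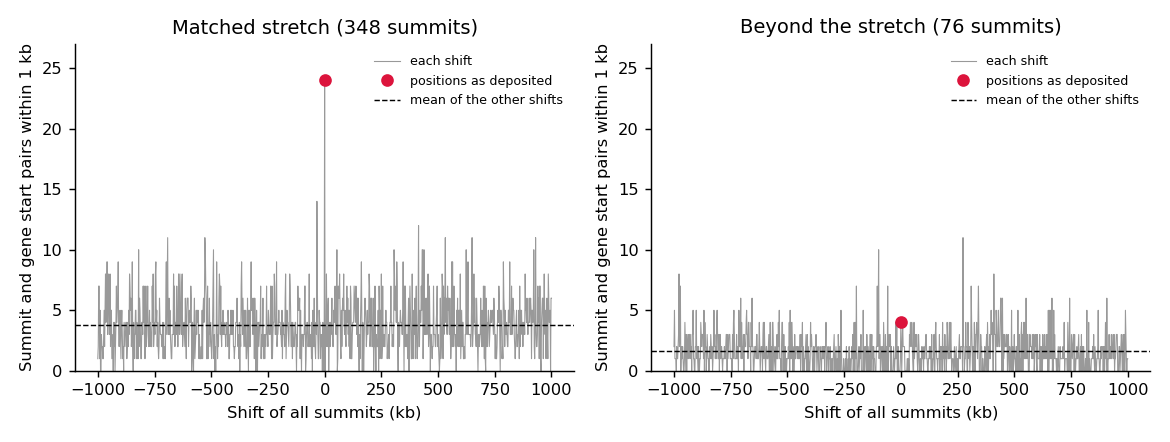
Count of pairs of 1 summit and 1 protein-coding start at most 1 kb apart (vertical axis) as all summits are moved along the chromosome (horizontal axis, kb), left up to 85 Mb and right beyond. The deposited positions (red) gave 24 pairs, from 17 summits, on the left, above every other shift, and 4 on the right, within the range of the others (grey; dashed line, their mean).

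Peaks at gene starts were few. In the matched stretch 17 of 348 peaks (4.89%, interval 3.07 to 7.68%) had their summit within 1 kb of a protein-coding start, and 331 were distal. Of the 440 protein-coding genes with a start in the stretch, 21 had such a summit, which is 4.77%. The other end of the same genes served as a comparison. The 3′ end had a summit within 1 kb in 2 of 440 genes (0.455%), at Rabl3 (99 bp away), a small GTPase gene, and at Vasn (752 bp away), which encodes vasorin, a TGF-beta binding protein. Within 5 kb the counts were 26 starts and 13 3′ ends. The stretch itself was chosen by summits near starts, which can favour starts in this comparison.

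The summits near starts were placed tightly. Of the 17 peaks, 14 had their summit within 300 bp of the nearest start, 3 lay between 300 and 1000 bp, and none was found between 1 and 2 kb. The median distance was 169 bp. Along the direction of the gene, 8 summits lay before the start and 9 after it. A start on each strand was within 1 kb of the summit for 3 of the 17 peaks (17.6%), while 46 of 521 starts of the stretch (8.83%) had a start on the opposite strand within 1 kb. These shares are not the same measure. Starts on either side of a summit can be up to 2 kb apart. A pair of starts counts once at a peak, but at each of its starts in the other share.

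The strongest of the peaks at starts was that of Epha3, a receptor tyrosine kinase for ephrins, at chr16:63863136-63863551 with a signal of 43.3. It was followed by Pcnp, which encodes a nuclear protein with a PEST sequence, at chr16:56029722-56030137 with 42.8. The third was Cfap44, a gene of the cilium axoneme, at chr16:44394709-44395124 with 36.8. These were the 3 peaks at starts with a score of 1000. Ranked by signal among all 348 peaks of the stretch, they stood at 72, 75 and 107.

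The other 14 peaks at starts had signals between 18.97 and 27.01, all below the distal median of 28.2. Usf3, encoding a basic helix-loop-helix protein, had a signal of 27.01 and a score of 898. Fgd4, an exchange factor for the GTPase Cdc42, had 26.5 and 851. The peak at Gabpa, an ETS transcription factor gene, and Atp5j, an ATP synthase subunit gene on the opposite strand, had 25.7 and 931. Its summit lay 128 bp after the start of Gabpa and 276 bp before a start of Atp5j. At Zfp148, a zinc finger factor gene, the summit lay 4 bp after the start, with a signal of 23.8 and a score of 838. With the 3 peaks above, these were the 7 peaks at starts with an IDR of 0.01 or below.

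The remaining 10 had scores between 593 and 730. Polr2h, a subunit shared by the RNA polymerases, had a signal of 21.9 and a score of 678. Tomm70a, an import receptor of the mitochondrial outer membrane, had 21.4 and 647. Slc25a1, the mitochondrial citrate carrier, had 20.6 and 730. These 3 peaks differed little in signal, and none reached the distal median of either measure.

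Alg3, a mannosyltransferase of N-glycan assembly, had a signal of 20.4 and a score of 597, and its peak also lay 759 bp before the start shared by Eef1akmt4 and the read-through gene Eef1akmt4-ece2. The peak between Ranbp1, a regulator of nuclear transport, and Trmt2a, a tRNA methyltransferase, was the weakest at any start, with 18.97 and 644. Poglut1, which adds O-glucose to Notch receptors, had 19.6 and 644. Ntan1, an amidase of the N-end rule pathway, had 21.5 and 625, and Zc3h7a, a zinc finger protein gene, had 21.1 and the lowest score of the set, 593. Carhsp1, which encodes a cold-shock domain protein, had 22.8 and 625. Gmnc, a gene of multiciliated cell fate, had 25.3 and 658, with the summit 526 bp before the start.

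**Figure D2:**
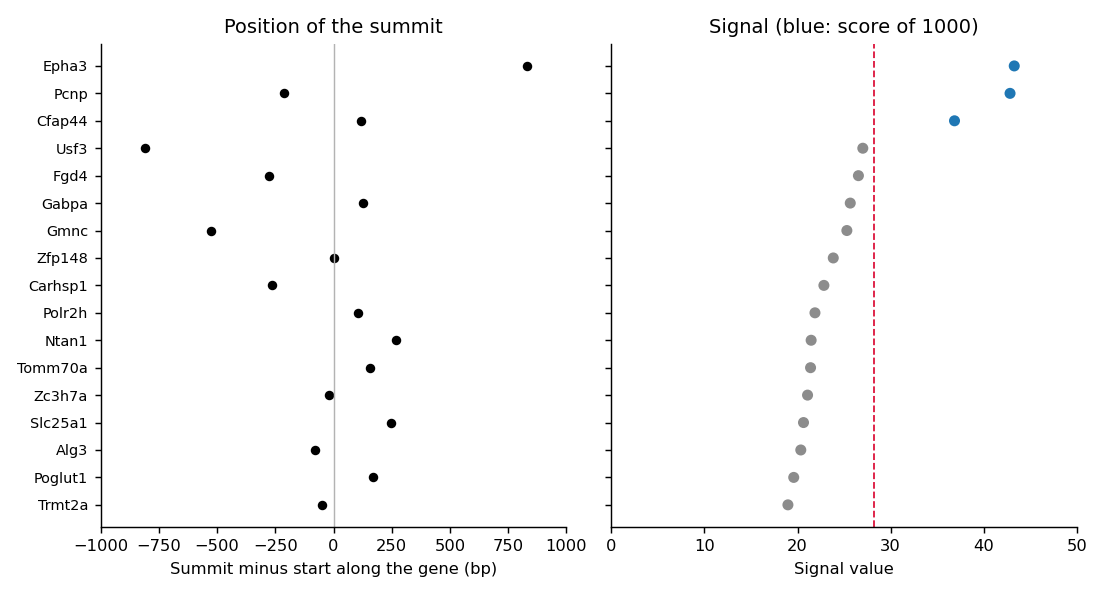
The 17 peaks within 1 kb of a protein-coding start, named by the nearest gene and ordered by signal. Left, position of the summit along the gene (bp, start at 0); right, signal value, with blue for a score of 1000 and the dashed line at the distal median of 28.2. Only Epha3, Pcnp and Cfap44 lie right of the line.

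Peaks at starts had a lower median signal and score than distal peaks. Their median signal was 22.8 (quartiles 21.1 and 26.5, range 18.97 to 43.3), against 28.2 (quartiles 21.7 and 40.2, range 5.40 to 203.7) for the 331 distal peaks, a difference of -5.33. The ranges overlapped widely: 49 distal peaks were below the weakest peak at a start, and 71 (21.5%) were above the strongest. The 35 strongest peaks of the stretch, those with a signal of at least 64.1, held 0 peaks at starts, and the nearest of them was 5.82 kb from a start. The median score was 678 at starts and 974 among distal peaks, a difference of -296. Low medians were not limited to peaks at starts. The 17 distal peaks at 1 to 10 kb from a start had a median signal of 21.9 and a median score of 753. Their signals spread more widely, with quartiles of 19.997 and 35.5 and a range of 10.7 to 109.5. The difference between peaks at starts and all distal peaks is therefore not shown to be specific to starts. No test was run, since the list gives 1 value per peak.

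A score of 1000 was found in 3 of 17 peaks at starts (17.6%, interval 6.19 to 41.03%) and in 160 of 331 distal peaks (48.3%, interval 43.005 to 53.7%). Both intervals treat peaks as independent, although distal peaks often lay close together. They are therefore no test of the difference. The distal share was near that of the whole list and the share at starts below it. An IDR of 0.01 or below was reached by 7 of 17 (41.2%) and 213 of 331 (64.4%). None of the 17 had a stronger summit within 500 bp, against 33 of 331 distal peaks (9.97%). Without such close neighbours the distal median was 29.7, so the difference was not smaller without them. All 17 had the common peak width of 416 bp, against 277 of 331 (83.7%). With peaks within 10 kb joined, 16 of the 17 (94.1%) stood alone, against 195 of 331 distal peaks (58.9%). Of the distal peaks at 1 to 10 kb from a start, 5 of 17 had a score of 1000 (29.4%, interval 13.3 to 53.1%). An IDR of 0.01 or below was reached by 7 of 17 of them (41.2%), the same share as at starts.

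**Figure D3:**
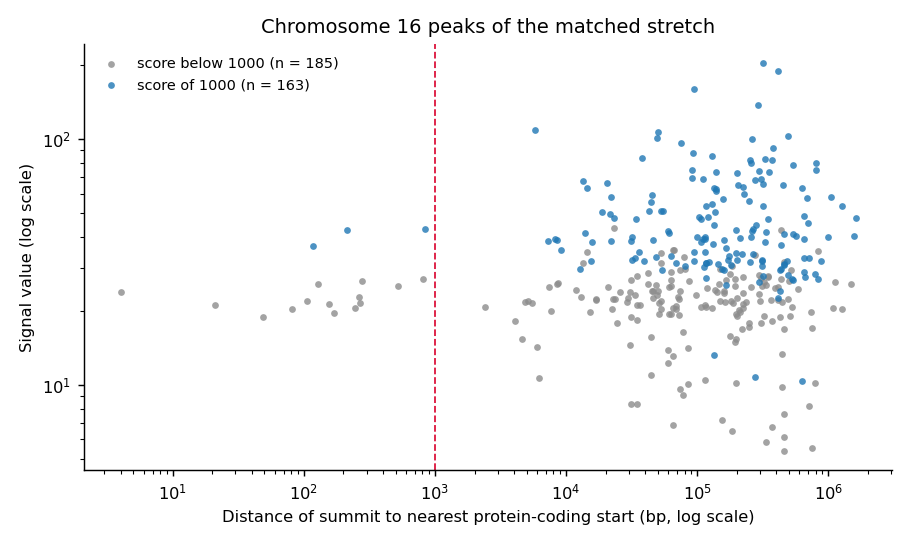
Signal value (log scale) against distance of the summit to the nearest protein-coding start (bp, log scale) for the 348 peaks of the matched stretch, blue for a score of 1000. The dashed line marks 1 kb: the 17 peaks left of it stay between 18.97 and 43.3, while distal peaks reach 203.7.

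Most distal peaks were far from any listed start. The median distance was 145 kb (quartiles 51.8 and 323 kb), and the largest was 1615 kb, for a peak between Ncam2 and Mrpl39 with a signal of 47.9. In the first 20 Mb alone the median distance was 67.01 kb. Only 17 distal peaks lay within 10 kb of a start, while 200 lay more than 100 kb away and 39 more than 500 kb. The share with a score of 1000 was higher far from starts than near them. Among the 114 peaks at 10 to 100 kb, 36.8% had a score of 1000 (interval 28.6 to 45.99%), against 56.5% of the 200 peaks beyond 100 kb (interval 49.6 to 63.2%). Beyond 500 kb it was 64.1% of 39 peaks.

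The signal changed less with distance, with medians of 26.7 at 10 to 100 kb and 29.6 beyond 100 kb. Across the 348 peaks, which share libraries and a caller, Spearman's rho between signal and distance was 0.102, against 0.0715 among the distal peaks alone and 0.169 among the 315 peaks without a stronger summit within 500 bp. The 35 strongest peaks had a median distance of 259 kb and the other peaks one of 124 kb. Nearest starts are limited to genes in the promoter table, so a distance can be too long where a gene without a listed start is nearer.

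**Figure D4:**
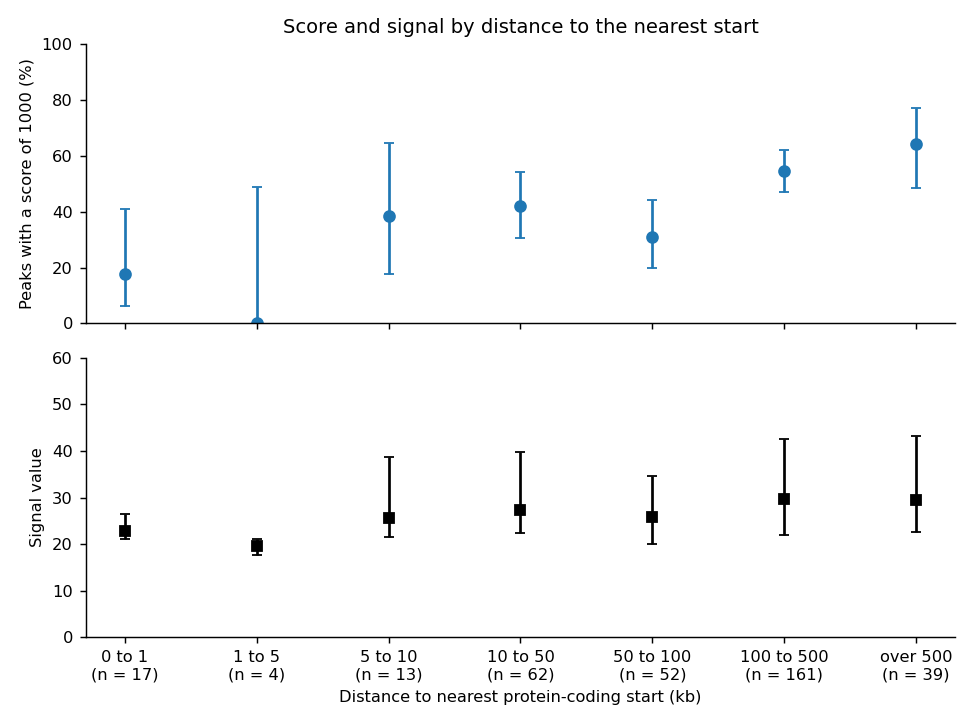
Peaks of the matched stretch grouped by distance to the nearest protein-coding start (kb, number of peaks under each group). Top, percentage with a score of 1000 with 95% Wilson intervals, 17.6% within 1 kb and 64.1% beyond 500 kb; bottom, median signal with quartiles as bars, between 19.5 and 29.7.

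Of the 9 strongest peaks of the stretch, all but 1 lay at least 49.7 kb from a listed start. The first was at chr16:62468666-62469009, between Epha6 and Nsun3, with a signal of 203.7. The nearest listed start was that of Nsun3, a methyltransferase gene, 318 kb away, while Epha6 ended 1858 kb away. The second, at chr16:63452066-63452511 with a signal of 189.2, lay between Pros1, which encodes the anticoagulant protein S, and Epha3, 91.3 kb from the nearer end of Epha3 and 412 kb from its start. The third, at chr16:74506401-74506761 with 160.5, was inside the span of Robo2, a receptor for the guidance ligand Slit, 94.7 kb from its nearest start. The fourth, at chr16:54991947-54992297 with 137.2, lay between Alcam and Zpld1, 291 kb from the start of Zpld1 and 2539 kb from Alcam. All had a score of 1000.

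Of the next 5, the peak nearest to a start was at chr16:65514603-65514818, with a signal of 109.5, 5.82 kb from the start of Pou1f1, a pituitary transcription factor. Acap2, a GTPase-activating protein gene for Arf6, held 2 peaks, of 107.1 and 101.4, with summits at 31131846 and 31131147. A peak of 103.1 at summit 51086785 lay between Ccdc54 and Cblb, 496 kb from the start of Ccdc54. Epha3 held a peak of 100.1 at summit 63602396. All 5 had a score of 1000.

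Peaks inside gene spans were spread over 61 protein-coding genes, most of them with few peaks. A gene span here runs from one end of the annotated gene to the other, and exons and introns were not told apart. In the stretch 136 of 348 summits (39.1%) were inside a protein-coding span, while such spans covered 41.4% of the stretch from its first gene on. Robo2 held 16 peaks in 1555 kb, with signals from 13.2 to 160.5 and 9 scores of 1000. Epha3 held 11 in 321 kb, with signals from 10.8 to 100.1 and 7 scores of 1000. That is 3.43 peaks per 100 kb in Epha3 and 1.03 in Robo2. Both were denser than the whole stretch, which held 4.24 peaks per Mb, that is per 1000 kb.

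Rbfox1, an RNA-splicing factor gene, held 7 in 1528 kb (0.458 per 100 kb), none above 33.8. Lsamp, a cell adhesion gene with a span of 2197 kb, held 5 (0.228 per 100 kb). Gbe1, the glycogen branching enzyme gene, and Robo1, another Slit receptor gene, held 6 each, with highest signals of 56.02 and 43.5. Zbtb20, a zinc finger repressor gene, also held 6, up to 42.3. Cadm2, a cell adhesion gene, held 5, all with a score of 1000 and up to 82.5.

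With peaks within 10 kb joined, the 424 peaks formed 329 sites, of which 69 held 2 or more peaks. The groups of the matched stretch with most peaks held 5 each. In Epha3, 5 summits over 11.8 kb had signals of 68.5, 10.8, 43.2, 100.1 and 42.4, all with a score of 1000. Beside Hes1, a repressor downstream of Notch, 5 summits over 2.40 kb had signals of 42.8, 10.2, 34.4, 15.4 and 19.5, and the first of them lay 875 bp past the end of the gene with the higher position. Between Robo1 and Robo2, 5 summits over 1.04 kb had signals of 7.63, 16.9, 5.40, 31.8 and 6.16 and no score of 1000. Between Alcam and Zpld1, 5 summits over 18.7 kb had signals of 29.6, 73.6, 63.5, 37.6 and 20.5, with 3 scores of 1000. Inside Robo2, 5 summits over 13.02 kb had signals of 53.6, 65.8, 31.9, 25.3 and 17.9, also with 3 scores of 1000. By their highest signal the 5 groups thus ran from Epha3 over that between Alcam and Zpld1, Robo2 and Hes1 down to that between Robo1 and Robo2. These counts include summits within 500 bp of a stronger one. Such were those of 10.8 and 42.4 in Epha3, 10.2 and 15.4 beside Hes1, and 53.6 and 25.3 in Robo2. Between Robo1 and Robo2 they were those of 7.63, 5.40 and 6.16, and between Alcam and Zpld1 there was none. The 1 Mb windows with most peaks were 63 to 64 Mb, around Epha3, with 19 peaks, and 73 to 74 Mb, around Robo1 and Robo2, with 16.

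Peaks at starts of non-coding genes were counted apart. Of the 331 distal peaks, 14 lay within 1 kb of the start of 11 non-coding genes, with a median signal of 26.5 and a median score of 945, and 5 had a score of 1000. The strongest were a pair at Gm30252, with signals of 85.1 and 54.5, each with a score of 1000. Mir99ahg, a long non-coding RNA gene that hosts microRNAs, had a summit 45 bp after a start, with a signal of 27.7 and a score of 1000. The nearest summit to the hairpin of Mir99a was 77.3 kb away.

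Lists of developmental genes of chromosome 16 were described by the distance of the nearest summit to the gene span. Of 532 protein-coding genes in the stretch, 61 (11.5%) had a summit inside the span and 252 (47.4%) had one inside it or within 100 kb. Span lengths were not matched between the lists and all genes, and long genes have more room for a summit. Among 11 transcriptional regulators of the stretch, 4 had a summit inside the span and 8 within 100 kb. The start of Gabpa was within 1 kb of a summit, the only one of 7 with a listed start. Trp63, the p63 gene of surface ectoderm, held 2 peaks, the stronger at 22.3. Nrip1, a corepressor of nuclear receptors, held 2, up to 50.96. Tbx1, a T-box gene of the pharyngeal region, had its nearest summit 25.5 kb away with a signal of 23.2. Etv5, an ETS factor gene induced by FGF signalling, had none within 100 kb, the nearest being 511 kb away, and Snai2, a gene of mesenchymal transition, had its nearest at 344 kb.

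Among 17 signalling genes of the stretch, 4 had a summit inside the span (Robo1, Robo2, Epha3 and Fgf12) and 12 within 100 kb. Epha3 was the only one of 14 with a listed start to have a summit within 1 kb of it. Fgf12, an intracellular FGF-family gene, held 5 peaks, up to 47.5. Boc, a Hedgehog co-receptor, had its nearest summit 57.2 kb away with a signal of 54.5. Chrd, the BMP antagonist chordin, had its nearest at 13.5 kb with 21.9, which is the peak at the start of Polr2h. For Chrd, Dvl3 and Arhgap31 the only summit within 100 kb was a peak at the start of another gene. Fstl1, a secreted BMP modulator, had its nearest at 56.5 kb with 17.9.

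Among 11 adhesion and matrix genes, 4 had a summit inside the span (Alcam, Itgb5, Lpp and Mylk), 9 had one within 100 kb, and 0 of 9 with a listed start had one within 1 kb of it. Alcam, a cell adhesion gene, held 2 peaks, up to 31.5, and its nearest start was 4.59 kb from a summit. Lpp, encoding a focal adhesion protein, held 2, up to 48.3. Mylk, encoding myosin light chain kinase, held 1 of 25.3, and Itgb5, an integrin subunit gene, held 1 of 19.5. Col8a1, a collagen gene, had its nearest summit 5.94 kb away with a signal of 14.3. For Jam2 the only summit within 100 kb was that of the peak at the starts of Gabpa and Atp5j.

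The promoters of the 21 genes with a summit within 1 kb of a start were searched for AGGTGTGA and for its core GGTGTG, each on both strands, in the 250 bases before the start. AGGTGTGA was found in 0 of 21 promoters, against 9 of 670 (1.34%) protein-coding promoters of the chromosome and 1.12% of all 32851 promoters of the table. By the rule of 3, which takes 3 of 21 as the limit for a count of 0, a share of up to 14.3% is allowed. Eef1akmt4 and its read-through gene share a promoter, and that of Atp5j overlaps Gabpa, so the 21 are not independent. The core, which AGGTGTGA contains, was found in 3 of 21 (14.3%), those of Pcnp, Gmnc and Zc3h7a, against 14.2% of the 670. The 21 promoters had a median GC content of 62.8% and a median of 19 CpG dinucleotides, against 54.2% and 10 in the 670. The 670 cover the whole chromosome, with 521 in the matched stretch, and include several starts of some genes. The 21 come from the stretch only, with 1 promoter per gene, so the sets are not matched. GC content ranged from 39.2% at Gmnc to 81.6% at Usf3. A match here describes letters in a promoter window. The sequence under the peaks, whether at starts or distal, was not used here. Of the 17 summits at starts, 9 lay after the nearest start, outside the bases searched. Some of the others lay more than 250 bp before it, so these shares do not describe the bound sites.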

How the data were processed

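TBX5 ChIP-seq was made from forelimbs in 2 ChIP and 2 input libraries, and samples were grouped by title. The deposited list has no header, and its 10 columns follow the narrowPeak layout. It gives 1 signal value, 1 score and 1 −log10 q-value per peak for the ChIP group, and a p-value column that the authors filled with 1 constant. The deposited signal value has no stated scale, and the deposited score is read as a scaled IDR because the list is named for an IDR of 0.05. The submitters' processing notes name FastQC and mm10. The aligner, peak caller, filters and pooling are not given in the sources used here, so signal was compared only within the list.

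Summits were converted to 1-based positions and compared with RefSeq starts of GRCm38.p6 in Python 3.11.15 with NumPy 2.4.6, pandas 2.3.3 and SciPy 1.17.1. Figures were drawn with matplotlib 3.10.9. Coordinates of peaks are as deposited, and their build is unresolved. Coordinates of printed promoters are those of GRCm38.p6. Peaks within 1 kb of a start were compared with the rest by medians, quartiles and shares, with no test. The matching step was tested on made-up positions with a known end of the match. A larger share of those positions lay near starts than in the list. The test therefore does not show how well the end is placed here. Genes named were the 20 with the strongest summit within 1 kb of a start (all 21, since the last had equal signals), the neighbours of the 10 strongest peaks (1 of these peaks is not reported here), and list members with a summit within 1 kb of a start. Other genes named were chosen after their values were seen. Promoters were printed for up to 6 genes by signal, leaving out that of Atp5j, which overlaps Gabpa. Members, lists and rules were chosen with earlier results of these data known. Alternatives were an IDR of 0.01 or below, other distances, removal of close summits, the whole chromosome, non-coding genes, other window widths and each summit counted once.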

Additional observations from a re-analysis of the deposited data

How the results depend on the processing

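In all, 56 alternative values were computed, 43 chosen at the start and 13 added after the data were seen. None turned a difference the other way, and 44 stayed within 1.5 times the reported value or, for the motif share, within its limit for a count of 0. The share with the core GGTGTG, 14.3%, equalled that limit. It measures a shorter and more common sequence, so it does not show that the motif share is stable. The match ended at 85 or 90 Mb under 5 of its 6 alternatives, and at 20 Mb with each summit counted once, where a summit near several starts no longer gives several pairs. In that shorter stretch 6 peaks lay at starts, the excess of gene starts over 3′ ends was 6 and the median distal distance was 67.01 kb in place of 144.6 kb. The differences there were -3.88 in median signal and -238.5 in median score. At an IDR of 0.01 or below, chromosome 16 held 269 peaks in place of 424, of which 7 in place of 17 lay at starts in the matched stretch. There the differences between peaks at starts and distal peaks were -8.47 in median signal in place of -5.33 and -69 in median score in place of -296, where fewer scores are left below the ceiling. The excess of genes with a summit at the start over those with one at the 3′ end was then 7 in place of 19. With starts of non-coding genes included, 31 peaks lay at starts and the differences were -3.18 in signal and -193 in score. The cause was not tested. With summits near either end of genes without a listed start counted as at starts, 22 peaks lay there and the signal difference was -6.73.

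No paired analysis was possible because both ChIP libraries share each deposited value, which also leaves no replicate to omit. Read depth is unknown, so the list cannot show which weak sites were missed.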

Other observations

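Past 85 Mb, where no gene was assigned, lay 76 peaks, among them the strongest of the chromosome, at chr16:96157152-96157526 with a signal of 237.4. Others in the upper ranks were at chr16:93272418-93272833 with 157.8, at chr16:94060184-94060440 with 107.6 and at chr16:90129172-90129473 with 105.8, all with a score of 1000. The median signal there was 28.7, against 27.6 in the matched stretch. Positions past 85 Mb are as deposited and were not shown to be those of GRCm38.

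The 18 windows of 1 Mb without a listed start held 3.17 peaks per Mb and the 22 with 10 or more listed starts held 3.05, while the 42 with 1 to 9 held 5.33. These are counts over windows, with no test.

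Of the 27 microRNA hairpins listed in the matched stretch, 0 had a summit within 1 kb, and the nearest was Mir1224 at 6.35 kb. A q-value above 0.05 was given to 21 of 331 distal peaks and to 0 of 17 at starts. Without peaks near a stronger summit, 1 such distal peak was left.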
